A study of Mus musculus with 8 samples.

Results

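The genes described here are 9 enzymes that the liver uses to dispose of nitrogen and to break down amino acids, out of 22180 genes measured on the arrays. They were taken by gene name, with earlier results of these data known: the urea cycle enzymes Nags, Cps1, Otc, Ass1, Asl and Arg1, and the amino acid breakdown enzymes Hal, Hpd and Tdo2. All 9 had a row naming them alone, and for each the row with the highest mean over the 8 arrays was used. Liver RNA came from 4 mice labelled IL-10 knockout and 4 labelled wild-type and was read on 8 Affymetrix Mouse Gene 2.0 ST arrays, 4 a group. All were labelled C57BL/6, female and 6 weeks old, and all had 3% dextran sulfate sodium (DSS), a colon irritant that causes colitis, in the drinking water for 7 days. The labels do not describe the Il10 allele, and there was no group without DSS, so the comparison is between genotypes under colitis. Values are log2 levels after robust multi-array averaging (RMA), differences are arrays labelled knockout (KO) minus arrays labelled wild-type (WT), and errors are SD over n = 4 arrays a group. The design text counts 4 mice a genotype, and the p-values reflect only how these samples spread.

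Amino acid breakdown releases ammonia, which hepatocytes around the portal vein turn into urea. Inside mitochondria NAGS makes N-acetylglutamate, the activator of CPS1, CPS1 joins ammonia with bicarbonate into carbamoyl phosphate, and OTC passes that group to ornithine to make citrulline. In the cytosol ASS1 joins citrulline with aspartate, ASL splits the product into arginine and fumarate, and ARG1 splits arginine into urea and ornithine. HAL takes ammonia off histidine, HPD is the dioxygenase of tyrosine breakdown, and TDO2 opens the tryptophan ring at the entry to the kynurenine pathway. Many of these genes are known to respond to glucagon, glucocorticoids and feeding.

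Some arrays go against their label. All were labelled female, but replicates 1 and 2 of both groups had Y-linked signal, with a mean over 3 Y-linked genes of 8.20 to 8.52 and Xist at 5.62 to 6.32. Replicates 3 and 4 of both groups had Xist at 11.68 to 11.82 and Y-linked signal at 4.30 to 4.48. Each signal set therefore holds 2 KO-labelled and 2 WT arrays, and values of the 9 genes within the sets are given after the comparison. Il10 itself read 5.79, 5.69, 6.00 and 6.41 in KO-labelled replicates 1 to 4, against 4.95, 5.08, 4.90 and 4.95 in WT replicates 1 to 4. The KO-labelled arrays read higher in that row (difference 1.00, SE 0.14, limma adjusted p = 0.00851). All WT arrays and KO-labelled replicates 1 to 3 lay below the array medians of 6.09 to 6.22 for Il10. The sources do not place the mutation relative to its probes, so directions rest on the labels alone. Hepatocyte markers fit the labelled tissue in level: Ttr, the one with the smallest p, averaged 13.26 in KO-labelled and 13.42 in WT arrays (difference -0.16, limma adjusted p = 0.186). Of 7 measured hepatocyte markers 0 were called, against 3.15% of all genes. At an unadjusted p under 0.05 there was 1, against 21.2% of all genes. For 4 of the 7, every KO-labelled array lay below every WT array, against 5.74% of all genes. None of the 9 genes lies within 20 Mb of Il10 in the RefSeq table.

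The promoter windows of the 3 amino acid breakdown enzymes are shown because these genes are placed side by side below and each RefSeq window ends at its gene's start. Each is the 250 bases before the start, 5′ to 3′ on the gene's strand, from RefSeq on GRCm38.p6. The windows are chr10:93488518-93488767 on the plus strand for Hal, chr5:123182724-123182973 on the minus strand for Hpd and chr3:81975729-81975978 on the minus strand for Tdo2. Capitals mark matches on either strand to the motifs TTCNNNGAA, a STAT palindrome, TTGCNNAA, of C/EBP type, ACANNNTGT, the core of a glucocorticoid receptor site, and TATAAA, the TATA box.
Hal: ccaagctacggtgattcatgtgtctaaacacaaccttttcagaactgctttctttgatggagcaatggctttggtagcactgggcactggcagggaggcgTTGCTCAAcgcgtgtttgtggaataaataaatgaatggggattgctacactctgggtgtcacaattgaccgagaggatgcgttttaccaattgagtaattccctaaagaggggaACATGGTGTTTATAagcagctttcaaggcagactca
Hpd: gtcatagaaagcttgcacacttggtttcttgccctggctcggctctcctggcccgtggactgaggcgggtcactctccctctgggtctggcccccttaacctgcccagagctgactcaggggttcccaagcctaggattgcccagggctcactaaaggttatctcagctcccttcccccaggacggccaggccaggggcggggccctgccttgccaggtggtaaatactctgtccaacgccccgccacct
Tdo2: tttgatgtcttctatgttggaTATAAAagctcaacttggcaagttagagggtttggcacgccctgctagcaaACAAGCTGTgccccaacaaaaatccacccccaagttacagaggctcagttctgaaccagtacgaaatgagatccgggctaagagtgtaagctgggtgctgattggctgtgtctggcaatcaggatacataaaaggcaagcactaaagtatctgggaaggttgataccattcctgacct
Hal had 3 matches, a C/EBP-type, a glucocorticoid receptor core and a TATA box on the opposite strand that shares 1 base with the core. Tdo2 had 2 matches, a glucocorticoid receptor core and a TATA box, and Hpd had 0. Over all 32851 windows of this length, 7.02% held the STAT letters, 9.56% the C/EBP-type letters, 5.84% the glucocorticoid receptor core and 12.4% the TATA box. A match is a run of letters and not a measured binding site, and no binding was measured here. Of the 9 genes, 6 have a window in that table; Cps1, Asl and Arg1 do not.

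No gene of the 9 passed the test between genotypes, and Asl, Tdo2, Arg1 and Hpd had positive differences and Otc a negative one at an unadjusted p under 0.05. With limma and Benjamini-Hochberg adjustment over 22180 genes, 0 of 9 had an adjusted p below 0.05, against 3.15% of all genes (1.56% higher and 1.59% lower; with a common median for all arrays the 699 calls, 347 higher and 352 lower, became 236 higher and 393 lower). At an unadjusted p under 0.05 there were 5 of 9, against 21.2% of all genes. Their differences lay between -0.25 and 0.71 (log2) with a median of 0.11, where the median of all genes was 0.025. The sign was positive for 6 and negative for 3. KO-labelled and WT arrays did not overlap for 3 of the 9, Arg1 and Hpd higher and Otc lower, against 12.9% of all genes (7.2% higher and 5.74% lower). At an adjusted p below 0.1 there were 2 of 9, Arg1 and Tdo2, against 7.6% of all genes.

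**Figure D1:**
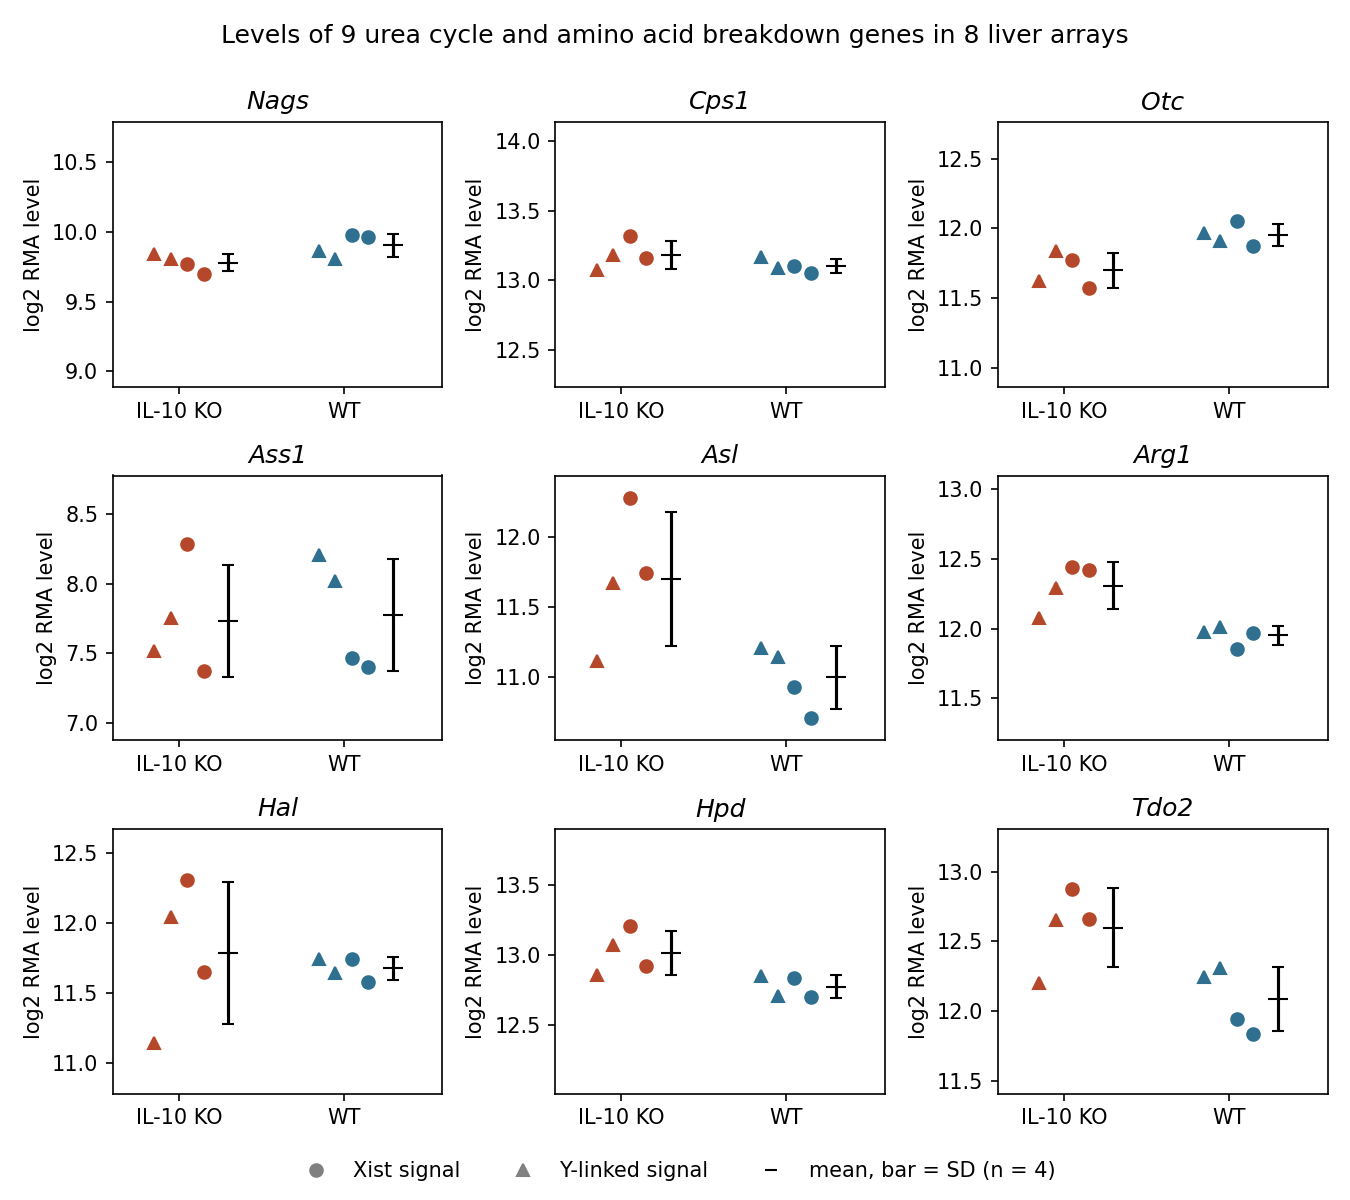
Log2 RMA level (vertical axes, all of the same height in log2 units) of each gene in KO-labelled arrays (left, red) and WT arrays (right, blue), with circles for arrays with Xist signal, triangles for Y-linked signal, and mean and SD bars (n = 4). Arg1 lies between 12.08 and 12.44 in KO-labelled arrays, above all WT arrays, while Hal spreads from 11.14 to 12.31 in KO-labelled arrays.

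The mitochondrial entry to the urea cycle differed little. Nags read 9.84, 9.81, 9.77 and 9.70 in KO-labelled replicates 1 to 4, against 9.86, 9.81, 9.98 and 9.97 in WT replicates 1 to 4. The groups overlapped, with a log2 difference of -0.12 (SE 0.07; 95% interval -0.28 to 0.03; limma adjusted p = 0.342). A second row naming Nags differed by 0.09, so the rows of this gene disagree in sign. Cps1, the enzyme that commits ammonia to the cycle, read 13.07, 13.18, 13.32 and 13.16 in KO-labelled arrays, against 13.17, 13.09, 13.10 and 13.05 in WT arrays. Its groups overlapped too. The difference of 0.08 had a 95% interval of -0.08 to 0.24 (adjusted p = 0.552). Cps1 lies near the highest value in the table, 13.8.

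Of the urea cycle genes, Otc had the most negative difference. It read 11.62, 11.84, 11.78 and 11.57 in KO-labelled replicates 1 to 4, against 11.97, 11.91, 12.05 and 11.88 in WT replicates 1 to 4. Every KO-labelled array was below every WT array, but the step between the nearest arrays was small. The means were 11.70 ± 0.13 in KO-labelled and 11.95 ± 0.08 in WT arrays, a difference of -0.25 (SE 0.08; 1.19-fold lower; limma adjusted p = 0.120), which did not pass. Otc is X-linked, so its values by signal set are given here. The genotype difference was -0.29 within the Xist set and -0.21 within the Y-linked set. Between the sets, Xist minus Y-linked with genotype as a term, Otc differed by -0.014 (SE 0.086, limma adjusted p = 0.987).

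The cytosolic steps ranged from no visible difference to the largest of the 9 genes. Ass1 read 7.52, 7.76, 8.28 and 7.37 in KO-labelled replicates 1 to 4, against 8.21, 8.02, 7.47 and 7.40 in WT replicates 1 to 4. Both groups spread over similar ranges, 0.91 and 0.80 log2 units, and the difference was -0.04 (SE 0.23; 95% interval -0.55 to 0.46; limma adjusted p = 0.930). Its means, 7.73 in KO-labelled and 7.77 in WT arrays, were the lowest of the 9 genes. The next lowest were those of Nags, 9.78 and 9.90. Only 1 row names Ass1, so no other row could be set beside it.

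Asl, the lyase that releases arginine, had the largest difference of the 9. It read 11.11, 11.67, 12.28 and 11.74 in KO-labelled replicates 1 to 4, against 11.20, 11.14, 10.93 and 10.70 in WT replicates 1 to 4. Of the KO-labelled arrays, 3 lay above all WT arrays and replicate 1 lay among them. The means were 11.70 ± 0.48 in KO-labelled and 10.99 ± 0.23 in WT arrays, a difference of 0.71 (SE 0.21; 1.63-fold; limma adjusted p = 0.100). Without KO-labelled replicate 1 the difference was 0.90 (adjusted p = 0.0218).

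Arg1, the enzyme that forms urea, had the smallest p of the 9. It read 12.08, 12.29, 12.44 and 12.42 in KO-labelled replicates 1 to 4, against 11.98, 12.01, 11.85 and 11.97 in WT replicates 1 to 4. All KO-labelled arrays were higher than all WT arrays, with replicate 1 the nearest. The means were 12.31 ± 0.17 in KO-labelled and 11.95 ± 0.07 in WT arrays, a difference of 0.36 (SE 0.09; 1.28-fold; limma adjusted p = 0.0657). Arg1 passed without KO-labelled replicate 1 (0.43; adjusted p = 0.0206) and with a variance trend and robust settings (adjusted p = 0.0491), where 3.28% of all genes were called. Macrophages of the mouse can also make ARG1. Of 12 macrophage markers 6 rose in these KO-labelled arrays and 6 did not pass. All 12 had positive differences at an unadjusted p under 0.05, against 21.2% of all genes at that level in either direction. The median deviation of these markers from the WT mean was 0.38 to 0.73 in KO-labelled arrays and -0.15 to 0.17 in WT arrays. Their part in the Arg1 value was not tested.

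Among the amino acid breakdown enzymes Tdo2 differed most. It read 12.20, 12.65, 12.88 and 12.66 in KO-labelled replicates 1 to 4, against 12.24, 12.31, 11.95 and 11.84 in WT replicates 1 to 4. Again replicate 1 of the KO-labelled group lay among the WT arrays and the other KO-labelled arrays lay above them. The means were 12.60 ± 0.28 in KO-labelled and 12.08 ± 0.23 in WT arrays, a difference of 0.51 (SE 0.15; 1.43-fold; limma adjusted p = 0.0954). Without KO-labelled replicate 1 it was 0.65 (adjusted p = 0.0279).

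Hpd read 12.85, 13.07, 13.21 and 12.92 in KO-labelled replicates 1 to 4, against 12.85, 12.71, 12.84 and 12.70 in WT replicates 1 to 4. The groups did not overlap, but the lowest KO-labelled and the highest WT array are equal to the second decimal. The difference was 0.24 (SE 0.09; 1.18-fold; limma adjusted p = 0.160). Hal read 11.14, 12.04, 12.31 and 11.65 in KO-labelled arrays, against 11.74, 11.64, 11.74 and 11.58 in WT arrays. Its KO-labelled arrays lay on both sides of the WT arrays, with an SD of 0.51 against 0.08, and the difference was 0.11 (SE 0.21; adjusted p = 0.788).

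The 9 genes varied more between KO-labelled arrays than between WT arrays, and largely in the same arrays. The SD was larger in the KO-labelled group for 8 of 9, against 51 of the 69 other pathway genes (73.9%), 6 of 7 hepatocyte markers and 56.3% of all genes. Nags was the exception, and Ass1 was close to a tie, at 0.3993 in KO-labelled and 0.3990 in WT arrays. KO-labelled replicate 3 had the highest value of all 8 arrays for Cps1, Ass1, Asl, Arg1, Hal, Hpd and Tdo2. KO-labelled replicate 1 was the lowest of its group for Cps1, Asl, Arg1, Hal, Hpd and Tdo2. The median deviation of the 9 genes from their WT means was -0.032, 0.30, 0.49 and 0.054 in KO-labelled replicates 1 to 4, and 0.068, -0.014, 0.00090 and -0.076 in WT replicates 1 to 4, so the groups overlapped. KO-labelled replicate 3 also had the lowest weight, 0.447, when limma estimated array weights over all genes, against 0.965 to 1.25 for the other arrays. Neutrophil markers were 0.63, 0.59, 1.03 and 0.96 above their WT means, by median, in KO-labelled replicates 1 to 4, and their part in the spread of the 9 genes was not tested. Without replicate 3, 0 of the 9 genes passed (2.6% of all genes did) and Hal had a difference of -0.066. Without replicate 1, 3 passed, all higher (Arg1, Asl and Tdo2; 4.69% of all genes did). Without any other single array 0 of 9 passed, where 2.39% and 0.933% of all genes did without KO-labelled replicates 2 and 4, and 0.933%, 1.07%, 1.07% and 1.85% without WT replicates 1 to 4. Under other processing 0 of 9 passed with low genes left out (6.1% of genes did), rows of a gene averaged (3.12%), arrays set to a common median (2.84%), quantile normalization (3.87%), cyclic loess (4.04%), array weights (3.68%) and the replicate number as a block (2.24%).

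**Figure D2:**
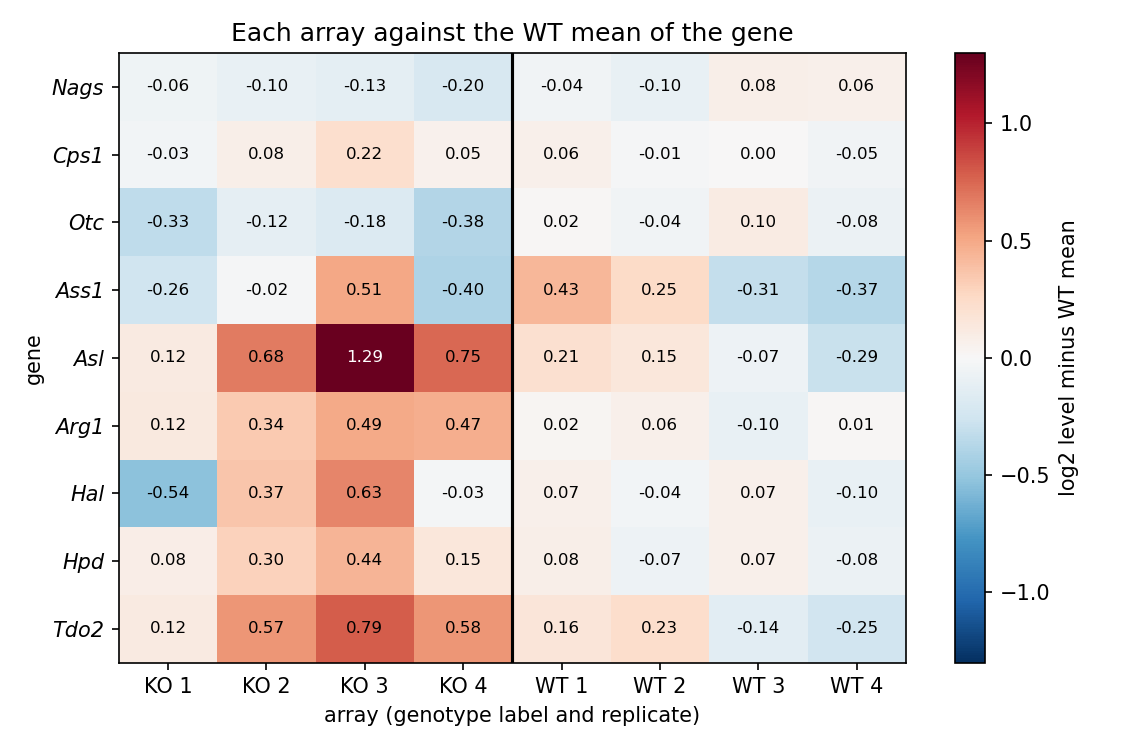
Log2 level of each gene (rows) in each array (columns, KO-labelled left, WT right) minus the mean of the WT arrays, with the value printed in each cell and red for higher. KO-labelled replicate 3 is 1.29 above the WT mean for Asl and 0.79 for Tdo2, while KO-labelled replicate 1 is 0.12 above it for both.

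Likeness between the genes followed that array pattern. Over the 8 arrays, as a description, the closest pair was Asl and Tdo2 (Pearson r = 0.97, and 0.94 after each group was centred on its own mean). Asl was also the nearest gene of the 9 to Cps1 (r = 0.92) and to Hpd (r = 0.91), and Tdo2 the nearest to Arg1 (r = 0.93). Nags ran the other way, with r = -0.88 against Tdo2. The points share the arrays and their scaling, and 8 points fix such values poorly. Outside the 9 genes, the 5 rows most like the mean profile of the 9 were Furin, Cd209c, Krt2, Apoh and 4933433G15Rik, with r between 0.957 and 0.964 (Pearson, 8 arrays). Furin, a protease that cuts precursor proteins, read 10.80, 10.98, 11.23 and 10.94 in KO-labelled replicates 1 to 4, against 10.91, 10.90, 10.83 and 10.83 in WT replicates 1 to 4. None of these 5 passed the test between genotypes (limma adjusted p between 0.312 and 0.621). The levels of Cd209c, Krt2 and 4933433G15Rik lay below the array medians of 6.09 to 6.22.

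Genotype differences of some genes were larger in the arrays with Xist signal, but no such difference between the sets passed its test. For Asl the difference was 1.20 in the 2 KO-labelled and 2 WT arrays with Xist signal and 0.22 in those with Y-linked signal. For Tdo2 it was 0.88 and 0.15, and for Arg1 0.52 and 0.19, in the same order. Ass1 turned direction, at 0.39 with Xist signal and -0.48 with Y-linked signal. The interaction of genotype and signal set had limma adjusted p = 0.821 for Asl, 0.789 for Tdo2, 0.907 for Arg1 and 0.885 for Ass1. By that test 0 of 9 passed (0.0271% of all genes did). Asl, Tdo2 and Ass1 had an unadjusted interaction p under 0.05. How many of all genes did was not counted, so that number has no background to be set against. Within the Xist set alone Asl and Tdo2 passed (adjusted p = 0.0468 and 0.0357; 1.43% of all genes did), and within the Y-linked set 0 of 9 did (0.771% of all genes). With the signal set as a block 0 of 9 passed (4.68% of all genes), the lowest adjusted p being 0.0603 for Arg1. Between the sets themselves, with genotype as a term, 0 of 9 differed (0.198% of all genes did). The 4 arrays of each set also share replicate numbers, and KO-labelled replicate 1 lies in the Y-linked set and replicate 3 in the Xist set, so set and single arrays cannot be told apart.

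**Figure D3:**
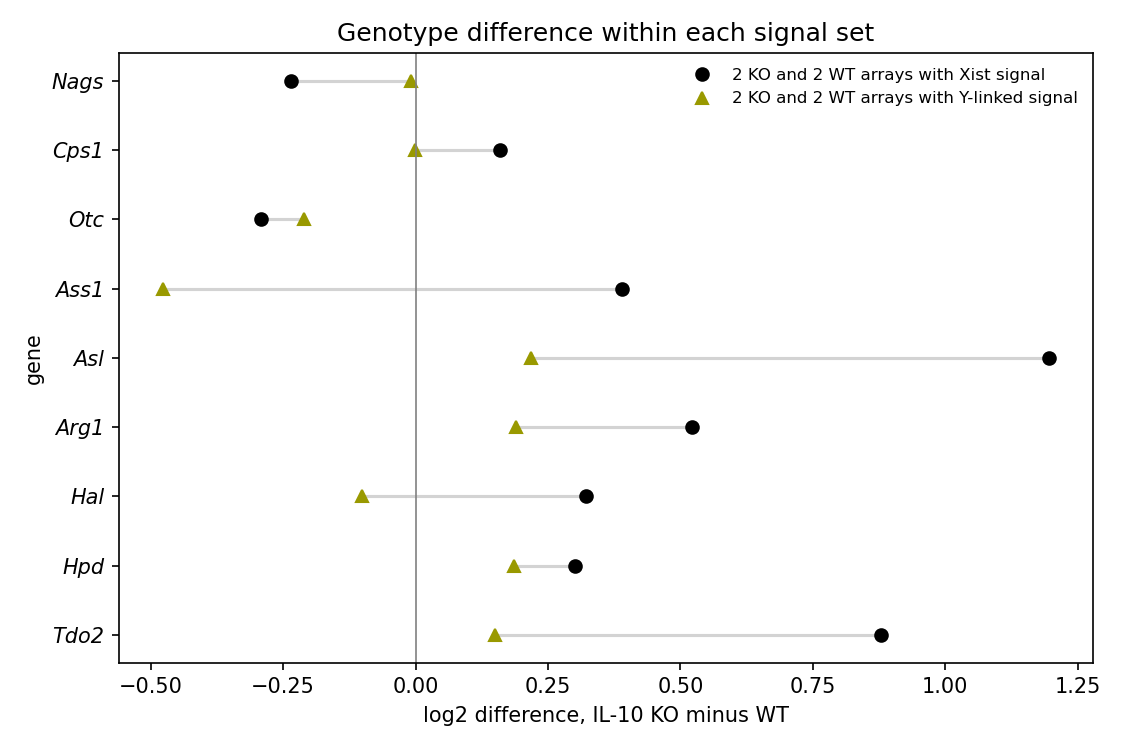
Log2 difference, KO-labelled minus WT (horizontal axis), of each gene in the 4 arrays with Xist signal (circles) and the 4 with Y-linked signal (triangles), each a mean of 2 arrays minus a mean of 2. Asl lies at 1.20 and 0.22, Ass1 on both sides of 0, and Otc below 0 in both sets.

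Other genes of nitrogen disposal and amino acid breakdown moved both ways. Of 77 listed genes outside the 9, 69 were measured: 3 rose, 3 fell and 63 did not pass (8.70% called, against 3.15% of all genes), and their median difference was -0.0052. Among genes kept after low genes were left out, 8 of 68 passed, against 6.1% of all kept genes. With a common median for all arrays 1 rose and 4 fell. The count was 1 or 2 without KO-labelled replicates 2 or 4 or any 1 WT array, 5 without KO-labelled replicate 3 and 9 without KO-labelled replicate 1. Next to the urea cycle, Slc25a15, which carries ornithine into mitochondria for OTC, rose. It read 11.38, 11.28, 11.31 and 11.44 in KO-labelled replicates 1 to 4, against 11.03, 10.97, 11.13 and 10.85 in WT replicates 1 to 4 (difference 0.36, SE 0.08; limma adjusted p = 0.0408). All KO-labelled arrays were above all WT arrays, yet leaving out any 1 of the 8 arrays ended the call (adjusted p between 0.0561 and 0.119), as did a common median for all arrays (adjusted p = 0.0799). Of 8 measured partners of the cycle it alone passed, and 4 of the 8 had positive and 4 negative differences. Those with an unadjusted p under 0.05 were, beside it, Arg2, the mitochondrial arginase (0.56; adjusted p = 0.0611), Glul, which makes glutamine from ammonia (1.05; 0.163), Glud1, which releases ammonia from glutamate (-0.32; 0.0723), and Slc25a13, a mitochondrial aspartate carrier (-0.32; 0.135). These 4 were picked for mention after their values were seen.

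In tyrosine breakdown Tat, the aminotransferase upstream of HPD, rose. It read 13.24, 13.13, 13.38 and 13.34 in KO-labelled replicates 1 to 4, against 12.98, 12.76, 12.72 and 12.60 in WT replicates 1 to 4 (difference 0.51, SE 0.10; limma adjusted p = 0.0247). The groups did not overlap. The other 4 measured genes of phenylalanine and tyrosine breakdown did not pass. They were Qdpr, Pcbd1, Hgd and Fah, with differences of -0.27, -0.23, -0.11 and 0.014. For Qdpr and Pcbd1 all KO-labelled arrays lay below all WT arrays. None of 3 genes that act after HAL on histidine passed (Uroc1, Amdhd1 and Ftcd; differences -0.25, -0.22 and 0.12). Tat lost its call without KO-labelled replicate 4 or WT replicates 2, 3 or 4 (adjusted p up to 0.0758).

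Downstream of TDO2, Kyat1 and Kyat3, which encode kynurenine aminotransferases, fell, while the other 9 measured genes of tryptophan breakdown did not pass. Among those 9 was Aadat, also a kynurenine aminotransferase, with overlapping groups and a difference of 0.07 (limma adjusted p = 0.697). Kyat1 read 10.26, 10.33, 10.50 and 10.07 in KO-labelled replicates 1 to 4, against 11.04, 11.06, 11.00 and 10.86 in WT replicates 1 to 4. The groups were well apart, with a difference of -0.70 (SE 0.10; 1.62-fold lower; limma adjusted p = 0.00815). Kyat3 differed by -0.46 (SE 0.09; adjusted p = 0.0237), with KO-labelled arrays between 10.54 and 10.75 and WT arrays between 11.02 and 11.30. Kyat1 still passed whichever 1 of the 8 arrays was left out. Kyat3 lost it without KO-labelled replicates 2 or 4 or WT replicates 1 or 3 (adjusted p up to 0.0706). Acmsd, a gene of the same pathway that lies within 20 Mb of Il10, had a difference of -0.0043.

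Mat1a, which makes the methyl donor S-adenosylmethionine from methionine, rose by 0.29 (SE 0.07; limma adjusted p = 0.04997), just inside the threshold. Agxt, which turns glyoxylate into glycine, fell by 0.46 (SE 0.10; adjusted p = 0.0344). Mat1a did not pass with a common median (adjusted p = 0.0822). Mat1a and Agxt lost their calls without any array but KO-labelled replicate 1 (adjusted p up to 0.138 and 0.101). They were the only called genes among 8 of methionine and cysteine and 8 of serine, glycine and threonine. At an unadjusted p under 0.05 these lists held 3 and 6 genes, against 21.2% of all genes. Differences were positive for 6 of the 8 methionine and cysteine genes. They were negative for 7 of the 8 serine, glycine and threonine genes, with a median of -0.31. The median deviation of that last list was -0.52 to -0.14 in KO-labelled and -0.13 to 0.10 in WT arrays. Of the other lists, 0 of 15 branched-chain, 0 of 4 lysine and 0 of 7 proline, alanine and aspartate genes passed (2, 1 and 4 at an unadjusted p under 0.05). Of 11 measured regulators of hepatocyte genes, Nr3c1, the glucocorticoid receptor, fell by 0.32 (SE 0.07; adjusted p = 0.0490; lost without any array but KO-labelled replicate 1, up to 0.133) and 10 did not pass. Nr3c1 also missed the threshold under quantile normalization (adjusted p = 0.0857) and cyclic loess (adjusted p = 0.0836). At an unadjusted p under 0.05 there were 3 of the 11 regulators, against 21.2% of all genes. Beside Nr3c1 they were Foxa1 (-0.42, adjusted p = 0.172) and Hnf4a (0.17, adjusted p = 0.221). Cebpa, Klf15 and the glucagon receptor Gcgr had -0.025, 0.063 and -0.27, and did not pass.

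**Figure D4:**
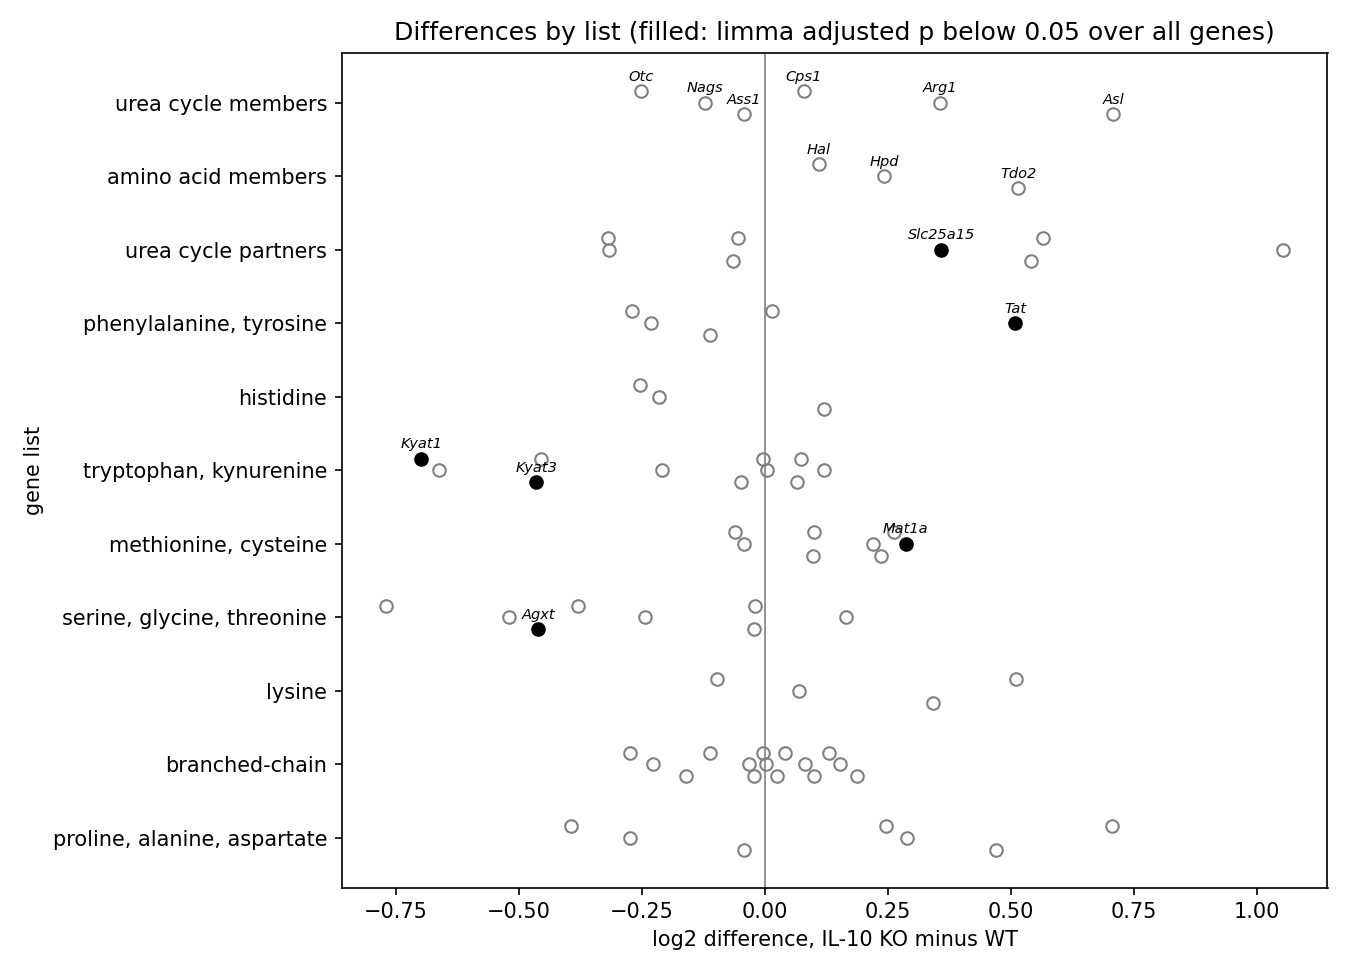
Log2 difference, KO-labelled minus WT (horizontal axis), of the 9 genes and of 69 other genes of nitrogen disposal and amino acid breakdown, 1 circle a gene, grouped by list. Filled circles passed limma at an adjusted p below 0.05: Kyat1, Kyat3 and Agxt left of 0, and Mat1a, Slc25a15 and Tat right of it.

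Markers of other cells differed between the groups in the same arrays, and bulk RNA cannot tell fewer cells of a type from less RNA per cell. Over all genes 1.56% were called higher, 1.59% were called lower, and 21.2% had an unadjusted p under 0.05. Of 11 neutrophil markers 8 rose (Mmp8 by 2.16), of 12 macrophage markers 6 rose (C1qb by 0.64), and of 8 monocyte and dendritic cell markers 5 rose (Fcgr4 by 1.37). The median deviation of the neutrophil list was 0.59 to 1.03 in KO-labelled and -0.11 to 0.07 in WT arrays, and that of the monocyte list 0.53 to 0.98 in KO-labelled and -0.13 to 0.10 in WT arrays. That of the 7 hepatocyte markers was -0.11 to -0.05 in KO-labelled and -0.02 to 0.01 in WT arrays. Of 9 T and NK cell markers 1 rose (Il2rb by 0.67), and of 6 endothelial markers 1 rose (Lyve1 by 1.05) and 5 did not pass, Kdr at -0.37 among them. Of 7 stellate cell markers 2 fell (Lrat by 1.01), and of 6 red cell markers 2 fell (Car1 by 0.95). Of 5 bile duct markers 1 fell (Pkhd1 by 0.84) and 4 did not pass, Sox9 at 0.52 among them. Kdr and Sox9 were picked for mention after their values were seen. Of 5 B and plasma cell markers 0 passed by limma (0 at an unadjusted p under 0.05), Jchain having -0.17. The part of these cells in the values of the 9 genes was not tested.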

How the data were processed

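Liver RNA was measured on 8 arrays, 4 a genotype. The authors deposited 1 table of log2 values made by RMA, with R 3.0.1 named per the submitters' processing notes; background settings, probe summary, control rows and genome build are not stated in those notes or the labels. The table holds 41345 rows with array medians between 6.09 and 6.22. Of these rows, 23521 name 1 gene in the platform annotation, 1814 name several and 16010 are unnamed there. The row with the highest mean was kept for each of 22180 genes; 8 of the 77 listed pathway genes had no row of their own and are not analysed here.

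Groups came from the sample titles. Arrays labelled knockout were compared with WT arrays by limma 3.58.1 (lmFit and eBayes without trend, all 8 arrays, no covariates, no filter on low values) in R 4.3.3, with Benjamini-Hochberg adjustment over all genes and a threshold of 0.05. Differences between signal sets were tested as an interaction in the same tool. All adjusted p-values are from limma. The fit was tested on simulated data. The number of arrays limits precision. No array repeats another: the root mean square difference of the closest pair was 0.22 (log2).

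The 9 genes and the lists were chosen with earlier results of these data known. The text names the 9 genes, every called gene of the pathway, regulator and zonation lists, the 5 genes most like the mean profile, and the marker with the smallest p of each list. Some genes not called between genotypes are named as well, with their values known. Alternatives were a filter on low values, the mean of a gene's rows, 3 rescalings, a variance trend with robust settings, array weights, the replicate number or signal set as a block, each signal set alone, each array left out and a threshold of 0.1. Promoter sequences are from RefSeq, GRCm38.p6. Figures were drawn with matplotlib 3.10.9.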

Additional observations from a re-analysis of the deposited data

How the results depend on the processing

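Of the 9 genes, 0 passed with low genes left out, with the mean of a gene's rows, with a common median, quantile normalization or cyclic loess, with array weights, with the replicate block and with the signal set as a block. The count was 1 with a variance trend and robust settings, 2 in the arrays with Xist signal alone, 2 at a threshold of 0.1 (7.6% of all genes) and 0 to 3 without 1 array. Of the 69 other pathway genes, 6 passed; the count was 2 with the replicate block, 11 with the signal set as a block, 0 and 1 in the Xist and Y-linked sets alone, 13 at a threshold of 0.1 and 1 to 9 without 1 array. It was 2, 1, 2, 2, 1 and 2 without KO-labelled replicates 2 and 4 and WT replicates 1, 2, 3 and 4. Over all genes 699 passed, with 317 and 171 in the Xist and Y-linked sets alone, 1685 at a threshold of 0.1 and 207 to 1040 without 1 array. Of the 699, 347 were higher and 352 lower; with a common median, 236 were higher and 393 lower.

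Signs turned for 3 of the 9 genes. Cps1 had -0.0015 in the Y-linked set alone. Ass1 had 0.39 in the Xist set alone and -0.23 to 0.10 without 1 array. Hal had -0.10 in the Y-linked set alone and -0.066 to 0.33 without 1 array. The cause was not tested.

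Replicate numbers are shared by the groups, but no label says that a number marks a shared litter or batch, and deviations of same-numbered arrays correlated at 0.27, 0.04, -0.10 and 0.29, so the arrays were not treated as paired. Deviations were still shared across numbers. WT replicate 1 correlated at 0.27, 0.29, -0.25 and -0.22 with KO-labelled replicates 1 to 4, and WT replicate 4 at -0.36, -0.34, 0.31 and 0.29. For WT replicates 2 and 3 the values lay between -0.16 and 0.10. The source of this was not tested. With the replicate block 497 genes passed over all genes, and Kyat1 and Aspg were the pathway genes among them. Tat, Slc25a15, Mat1a, Kyat3, Agxt and Nr3c1 then had limma adjusted p-values of 0.0564, 0.0942, 0.109, 0.0521, 0.0709 and 0.0830.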

Other observations

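Genes that mark the zones of the liver lobule, where the urea cycle sits in the periportal part, were also read. Of 6 measured periportal markers, Cdh1, the epithelial cadherin, fell by 0.81 (SE 0.12; limma adjusted p = 0.00987) and Cyp2f2 fell by 0.60 (SE 0.12; adjusted p = 0.0294), and 4 did not pass. Over all genes 1.59% were called lower. Both genes have 2 rows. With the mean of a gene's rows Cdh1 had a smaller difference, -0.61 (limma adjusted p = 0.0060), and Cyp2f2 had -0.57 (limma adjusted p = 0.0327). In the row used, Cdh1 read 8.98, 8.78, 8.96 and 9.07 in KO-labelled replicates 1 to 4, against 9.81, 9.98, 9.83 and 9.43 in WT replicates 1 to 4. It still passed whichever 1 of the 8 arrays was left out, while Cyp2f2 lost its call without KO-labelled replicates 2 or 4 or WT replicates 1, 2 or 3 (adjusted p up to 0.0946). The 4 periportal markers that did not pass moved both ways, with differences of 0.11 (Pck1), 0.12 (Hsd17b13), -0.049 (Aldh1b1) and -0.35 (G6pc). By median, the periportal list deviated from its WT means by -0.29 to -0.10 in KO-labelled arrays. WT arrays spanned -0.12 to 0.05 for this list, and the highest KO-labelled array lay above the lowest WT array. Of 11 pericentral markers 0 passed (2 at an unadjusted p under 0.05, against 21.2% of all genes). Their median deviation from the WT means was 0.54, 0.40, -0.51 and 0.03 in KO-labelled replicates 1 to 4, and 0.42, -0.18, -0.14 and -0.04 in WT replicates 1 to 4, so the groups overlapped.

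Csad, a taurine synthesis enzyme noticed after its values were seen, followed the signal set and not the genotype. It averaged 9.50 in KO-labelled and 9.37 in WT arrays with Xist signal, and 10.76 in KO-labelled and 10.97 in WT arrays with Y-linked signal. The difference between sets, Xist minus Y-linked with genotype as a term, was -1.43 (SE 0.14; limma adjusted p = 0.00362), where 0.198% of all genes passed. Of the 9 urea cycle and amino acid genes 0 passed that test.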
